A study of Mus musculus with 13 samples.

Results

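Meiosis builds chromosomes that mitosis never uses, and 10 genes for their parts were followed here through 13 mouse libraries. The genes were Sycp1, Sycp2, Sycp3, Syce1, Syce2, Hormad1, Stag3, Smc1b, Rec8 and Dmc1, chosen by name. All 10 had a row among the 38377 gene identifiers of the count table, each matched by its Ensembl identifier to the GRCm38 annotation.

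In meiotic prophase, sister chromatids are held along a protein axis by cohesin complexes that carry meiosis-specific subunits, and homologous chromosomes are then zipped together by the synaptonemal complex. SYCP2, SYCP3 and HORMAD1 belong to the axis, SYCP1 forms the transverse filaments that bridge the homologues, and SYCE1 and SYCE2 build the central element. REC8, STAG3 and SMC1B are the meiotic counterparts of the cohesin subunits RAD21, STAG1 or STAG2, and SMC1A, and DMC1 is a recombinase that acts in meiosis. Outside the germ line many such genes are silent, and in mouse several carry DNA methylation at CpG-rich promoters that repressors bound through E-box and E2F-type sites help to set up.

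The libraries came from bulk RNA of female extraembryonic endoderm stem cells (XEN, kept in DMEM with serum) and female epiblast stem cells (EpiSC, kept on matrigel with FGF2 and Activin). XEN groups were wild type (2 libraries), XEN with the paternal Xist allele deleted, called dXist (3), and each genotype after 20 uM 5-aza-2'-deoxycytidine (2 and 2), a cytidine analogue known as decitabine that traps DNA methyltransferases. EpiSC groups were wild type (2) and dXist, here a heterozygous Xist deletion (2). The labels do not say how long the drug was applied or whether numbered libraries were separate clones or cultures, so p-values measure the spread between these libraries only. In bulk RNA, fewer cells of a type and less RNA per cell cannot be told apart.

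Library totals ran from 5848454 counts (treated wild-type XEN library 1) to 35247432 counts (wild-type XEN library 2), so 3 counts stood for 0.0840 to 0.495 CPM, the share of a library's counts scaled to a common total after TMM normalisation. Mitochondrial rRNA and Rn7sk, which lack long poly(A) tails, took 10.4% to 13.5% of counts in 4 libraries and 0.0152% to 0.279% in the other 9. These 4, called total-RNA-like, were both treated wild-type XEN libraries, wild-type EpiSC library 2 and dXist EpiSC library 2. Decitabine and library type therefore cannot be told apart in wild-type XEN, whereas all 5 dXist XEN libraries were of the other, poly(A)-like kind. Xist, the deleted gene, was at 1560 and 1701 CPM in wild-type XEN and 2.36, 1.21 and 5.02 CPM in dXist XEN, but treated dXist XEN library 2 held 233 CPM against 13.3 CPM in library 1. The 7 extraembryonic endoderm markers summed to 2282 CPM or more in every XEN library and to 97.2 CPM or less in every EpiSC library, and the 6 epiblast markers to 603 CPM or more in EpiSC and 222 CPM or less in XEN.

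The promoters of 5 genes that turn up in the comparisons below are shown first, taken from RefSeq on GRCm38.p6, because DNA methylation acts on such sequence. Capitals mark the E-box CACGTG and the E2F-type hexamer TCCCGC or its reverse complement GCGGGA. Each stretch ends just before the outermost annotated start of its gene.
Hormad1: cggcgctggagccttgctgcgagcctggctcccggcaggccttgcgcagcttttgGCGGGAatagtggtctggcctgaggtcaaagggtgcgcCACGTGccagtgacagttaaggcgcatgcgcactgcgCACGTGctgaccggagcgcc
Sycp3: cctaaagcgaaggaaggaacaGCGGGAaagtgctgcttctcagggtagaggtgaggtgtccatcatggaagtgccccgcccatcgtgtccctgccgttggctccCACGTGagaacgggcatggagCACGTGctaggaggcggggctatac
Sycp1: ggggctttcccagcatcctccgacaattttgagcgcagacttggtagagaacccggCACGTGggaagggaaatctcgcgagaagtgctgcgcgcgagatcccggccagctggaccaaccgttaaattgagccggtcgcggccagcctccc
Sycp2: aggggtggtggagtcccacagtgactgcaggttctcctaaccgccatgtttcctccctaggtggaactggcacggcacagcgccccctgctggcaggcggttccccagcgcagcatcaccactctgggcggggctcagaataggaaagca
Dmc1: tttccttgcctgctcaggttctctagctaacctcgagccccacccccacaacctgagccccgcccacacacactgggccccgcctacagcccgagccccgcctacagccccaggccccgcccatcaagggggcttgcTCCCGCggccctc

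These stretches lie at chr3:95559527-95559676 on the plus strand for Hormad1, chr10:88459419-88459568 on the plus strand for Sycp3, chr3:102936101-102936250 on the minus strand for Sycp1, chr2:178407686-178407835 on the minus strand for Sycp2 and chr15:79605110-79605259 on the minus strand for Dmc1. Hormad1 and Sycp3 each show 2 E-boxes and 1 E2F-type hexamer, Sycp1 shows 1 E-box, Dmc1 shows 1 E2F-type hexamer, and Sycp2 shows neither motif.

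Over the whole promoter window of 300 bases (250 before the start and 50 from it), both motifs were searched on both strands in RefSeq windows of 27025 genes. The E-box was found in 5 of the 10 genes (Sycp1, Sycp3, Syce2, Hormad1 and Stag3) and in 8.09% of all genes. The E2F-type hexamer was found in 8 of the 10, all but Sycp2 and Syce1, and in 22.0% of all genes. The same 5 genes held both motifs, as did 2.65% of all genes. CpG pairs numbered 10 (Sycp2) to 33 (the downstream start of Syce2) per window, against a median of 7 over all windows. Each motif itself contains a CpG pair, and the part of CpG content in the motif shares was not tested. A match is a description of the letters and not of binding, and DNA methylation was not measured in these libraries.

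**Figure D1:**
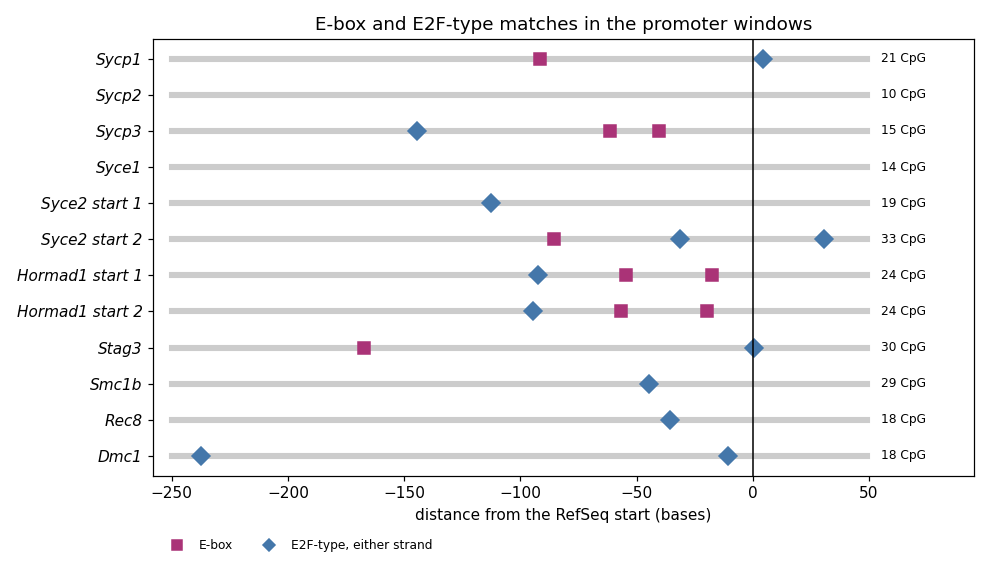
Positions of the E-box (squares) and of the E2F-type hexamer on either strand (diamonds) in the 12 RefSeq promoter windows of the 10 genes, by distance in bases from the start, with the number of CpG pairs at the right. Sycp2 and Syce1 hold neither motif, and Sycp2 has the fewest CpG pairs (10).

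Untreated XEN cells held little RNA of most of these genes. Per kilobase of exon, the scale on which genes can be ranked, Syce2 led wild-type XEN at 9.35 ± 0.823 CPM per kb (SD, n = 2) and was followed by Rec8 at 0.432 ± 0.364. Syce1 (0.0696 ± 0.0322), Stag3 (0.0650 ± 0.0245), Smc1b (0.0333 ± 0.0471), Sycp3 (0.0267 ± 0.0377) and Dmc1 (0.00692 ± 0.00979 CPM per kb) came next and did not differ from their neighbours in that order beyond their spread. Sycp1, Sycp2 and Hormad1 had 0 counts in both libraries, which allows up to 3 counts over the group, or 0.0509 CPM.

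The mitotic cohesin genes were abundant in the same cells. Rad21 stood at 76.1 ± 5.25 CPM per kb, Smc3 at 45.7 ± 4.38, Smc1a at 31.2 ± 9.94, Stag2 at 13.9 ± 0.265 and Stag1 at 6.92 ± 0.183 in wild-type XEN (SD, n = 2). Per kilobase, Rec8 reached 0.241% to 0.864% of Rad21 in the 2 libraries, and Smc1b at most 0.275% of Smc1a. Of the 10 meiotic genes, only Syce2 was within the range of these 5 cohesin genes.

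**Figure D2:**
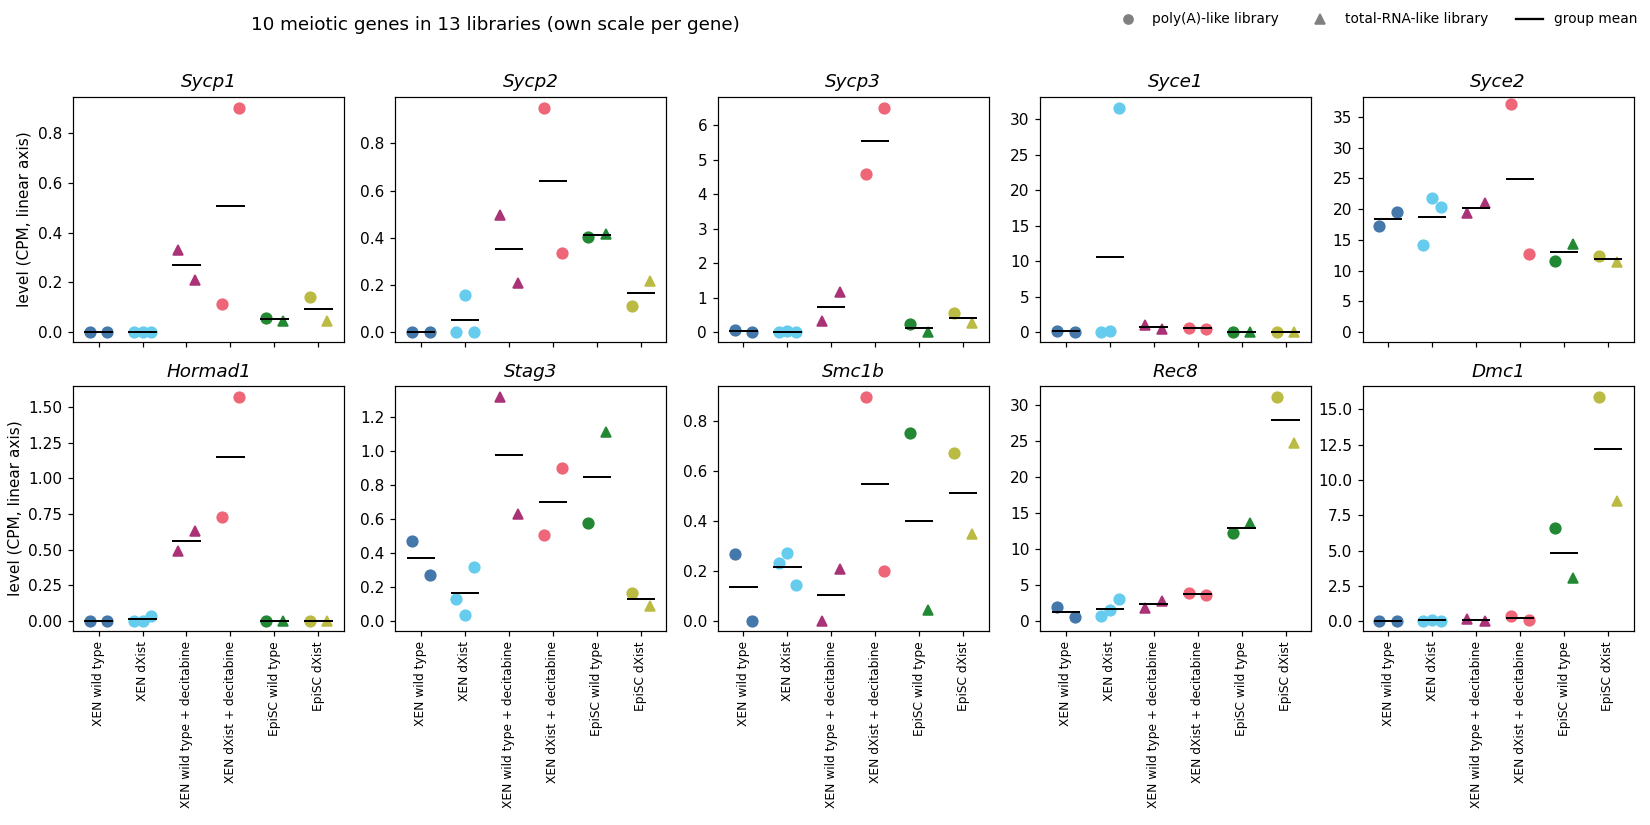
Level of each gene in CPM (linear axis, own scale per gene) in the 13 libraries, grouped as labelled; circles are poly(A)-like and triangles total-RNA-like libraries, and bars are group means. Sycp1, Sycp2, Sycp3, Hormad1 and Stag3 are higher in every treated than in every untreated XEN library, Rec8 and Dmc1 are highest in EpiSC, and Syce1 stands at 31.6 CPM in 1 dXist XEN library.

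The decitabine comparisons asked which of these genes differ in XEN cells after a DNA methylation inhibitor. Sycp1, Sycp2, Sycp3, Hormad1 and Stag3 were higher in each of the 4 treated libraries than in each of the 5 untreated XEN libraries. That is 5 of 10 genes, where 3.76% of 35682 genes with counts in these libraries were as cleanly higher and 3.92% as cleanly lower. In treated wild type part of this rests on few counts. Sycp1 had 2 and 2 there, Sycp2 had 3 and 2, and Sycp3 had 2 in library 1. A gene with 1 count in treated wild-type library 1 stood at 0.165 CPM, above the highest untreated Sycp2 level (0.156 CPM). None of the 8 genes with enough counts to be tested passed the test over all genes in either genotype, and levels other than those of Syce2, Rec8 and treated dXist Sycp3 were at or under 1.57 CPM in the treated libraries.

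The axis gene Sycp3 had the highest level of the 5 in both treated dXist libraries, but not in treated wild type, where Stag3 had the higher mean. Its levels were 0.0674 and 0 CPM in untreated wild-type XEN, 0, 0.0390 and 0 CPM in untreated dXist XEN, 0.330 and 1.15 CPM in treated wild-type XEN, and 4.59 and 6.51 CPM in treated dXist XEN. In counts this was 3 over the 5 untreated libraries against 2 and 11 in the treated wild type and 82 and 195 in treated dXist. Both genotypes were thus higher when treated, without overlap, and the dXist libraries were the higher of the treated ones. The count ratio was 485 (exact 95% interval 86.4 to 19231; such intervals and the floors of 3 counts cover counting error only) in dXist and 24.6 (5.56 to 224) in wild type. By edgeR's quasi-likelihood test the log2 change was 8.30 (SE 1.27, adjusted p = 0.0584, higher in 2 of 2 libraries) in dXist and 4.44 (SE 1.34, adjusted p = 0.233) in wild type.

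That value of Sycp3 sits close to the threshold of 0.05 in dXist XEN. Over 12 settings its adjusted p ran from 1.1e-08 to 0.188, with 6 calls. By edgeR, leaving out untreated dXist library 1, 2 or 3 gave 0.188, 0.179 and 0.0443. Leaving out treated dXist library 1 gave 0.126, and leaving out library 2, the one with 233 CPM of Xist, gave 0.00751. In the last of these fits 4730 of all genes were called, and in both the lone treated library is assumed to vary like the other groups. Of the 1264 exon bases of Sycp3, 660 are shared with Chpt1 on the other strand, and the strand used in counting was not given in the sources used here. Chpt1, a phospholipid synthesis gene, was at 9.56 to 37.8 CPM in the XEN libraries and had 21.4 CPM in untreated dXist library 1, where Sycp3 had 0 counts.

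Hormad1, the axis gene whose product marks unsynapsed chromosomes, was nearly silent without the drug. It had 0 counts in both untreated wild-type libraries and 0, 0 and 1 in untreated dXist, against 3 and 6 counts in treated wild type and 13 and 47 in treated dXist. These are 0.495 and 0.630 CPM in treated wild type and 0.727 and 1.57 CPM in treated dXist. The treated wild-type level was at least 11.3-fold higher than a floor of 3 counts over the untreated group, and the dXist count ratio was 105 (exact 95% interval 18.2 to 4219). The edgeR adjusted p was 0.165 in wild type and 0.0641 in dXist (log2 change 6.06, SE 1.22). It ran from 0.00141 to 0.200 over 12 settings. By edgeR it was 0.200, 0.179 and 0.0549 without untreated dXist library 1, 2 or 3, 0.173 without treated dXist library 1, and 0.0395 without treated dXist library 2, with the same assumption for a lone treated library.

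Sycp1, the transverse filament gene, had 0 counts in all 5 untreated XEN libraries. It had 2 and 2 counts in treated wild type (0.330 and 0.210 CPM) and 2 and 27 in treated dXist (0.112 and 0.902 CPM). Only treated dXist library 2 exceeded 3 counts, so the difference was at the limit of depth in the other 3. Over the groups the treated level was at least 5.04-fold higher in wild type and at least 16.9-fold higher in dXist than a floor of 3 counts over the untreated libraries (edgeR adjusted p = 0.351 and 0.0902).

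Sycp2, which binds SYCP3 in the axis, was seen in 1 of the 5 untreated libraries. Levels were 0 and 0 CPM in wild type and 0, 0.156 and 0 CPM in dXist, then 0.495 and 0.210 CPM in treated wild type and 0.951 and 0.334 CPM in treated dXist. The treated dXist library with the higher level was here library 1, while for Sycp1 and Hormad1 it was library 2. The treated wild-type level was at least 6.30-fold higher than the floor, from 5 counts, and the dXist count ratio was 11.8 (exact 95% interval 4.12 to 46.5), with edgeR adjusted p = 0.333 and 0.164.

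Stag3, the meiotic cohesin subunit that REC8 complexes need, had counts in every library. It stood at 0.472 and 0.273 CPM in wild type and 0.133, 0.0390 and 0.321 CPM in dXist, and at 1.32 and 0.630 CPM in treated wild type and 0.504 and 0.902 CPM in treated dXist. The lowest treated library (0.504 CPM) was just above the highest untreated one (0.472 CPM). The log2 change was 1.51 (SE 1.07, adjusted p = 0.609) in wild type and 2.06 (SE 0.95, adjusted p = 0.196) in dXist by edgeR, neither of which passed.

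The other 5 genes did not separate treated from untreated libraries in both genotypes. Rec8, the meiotic kleisin, was at 2.02 and 0.513 CPM untreated and 1.81 and 2.83 CPM treated in wild type, which overlapped. In dXist it was at 0.665, 1.48 and 3.10 CPM untreated and 3.97 and 3.57 CPM treated, which did not (log2 change 1.10, SE 0.81, edgeR adjusted p = 0.400). Syce2, the central element gene with the most counts, lay between 14.1 and 21.9 CPM in the 5 untreated libraries, and treated wild type, with 118 and 200 counts, was inside that range at 20.2 ± 1.09 CPM (SD, n = 2). Its treated dXist libraries fell on either side of that range, at 37.0 and 12.7 CPM, so that its log2 change of 0.40 (SE 0.46) was -0.59 without treated dXist library 1.

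Smc1b and Dmc1 were below the count filter in XEN and were not tested. Smc1b had 0 and 2 counts in treated wild type and 16 and 6 in treated dXist, and between 0 and 8 in the untreated XEN libraries. Dmc1 had 1 and 0 counts in treated wild type and 6 and 2 in treated dXist, and 0 to 3 in the untreated ones. Neither separated the groups.

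**Figure D3:**
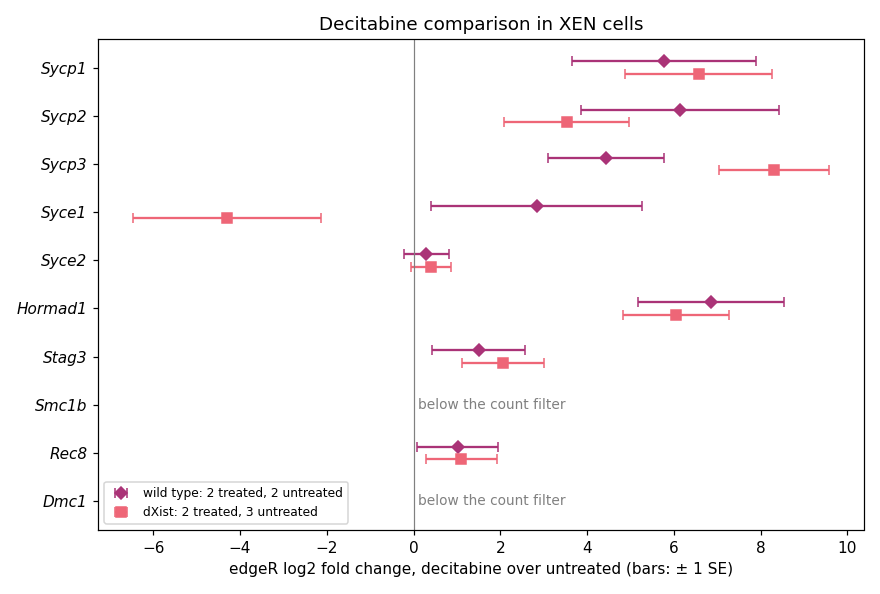
Fitted log2 fold change of treated over untreated XEN libraries by edgeR, with bars of 1 SE, in wild type (diamonds, 2 against 2) and dXist (squares, 2 against 3). None passed an adjusted p of 0.05; where the untreated group had 0 counts (Sycp1 in both genotypes, Sycp2 and Hormad1 in wild type) the fitted value depends on the prior count and is no bound.

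In wild-type XEN, edgeR called 0 of the 8 genes tested, against 0.582% of all 18393 genes (107 genes, with 0.549% higher and 0.0326% lower). Sycp1, Sycp2, Sycp3 and Hormad1, 4 of the 8, had an unadjusted p under 0.05, against 12.4% of all genes, and DESeq2 called 1, Sycp3, against 3.51% of all genes. Libraries did not overlap for 6 of 10 genes, the 5 above and Syce1, where 21.1% of genes were as cleanly higher and 24.9% as cleanly lower. In dXist XEN, edgeR called 0 of 8 against 0.0761% of all genes (14 genes, with 0.0707% higher and 0.00544% lower), with the same 4 genes at an unadjusted p under 0.05 against 26.8% of all genes, and DESeq2 called 2, Sycp3 and Hormad1, against 15.5% of all genes. DESeq2 gave no adjusted p for Syce1 in either genotype. Libraries did not overlap for 6 of 10 there too, the 5 and Rec8, against 16.2% cleanly higher and 14.5% cleanly lower. The median fitted log2 change of the 8 genes was 2.80 in dXist, with all tested genes at -0.025, and 3.64 in wild type (2.49 with genes at 0 counts set to their bound), with all genes at -0.042. Sycp1, Sycp2, Sycp3 and Hormad1 had 4 counts or fewer in every untreated library and passed the count filter through treated libraries alone. A fit of the untreated XEN groups alone tested 2 genes, Syce2 and Rec8, and so left out Stag3 and Syce1 as well. The medians and counts over the 8 thus include genes let in by their treated levels. With only the groups compared, edgeR tested 3 genes in wild type and 7 in dXist. Of these, 0 and 3 had an unadjusted p under 0.05, against 4271 of all 15321 genes in wild type and 3306 of all 16227 in dXist.

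Whether decitabine acted differently in the 2 genotypes was tested as an interaction. EdgeR called 0 of 8 genes, with 0 at an unadjusted p under 0.05 (8.0% of all genes), against 0.245% of all genes called (0.00544% higher in dXist and 0.239% lower). DESeq2 called 0, against 1.17% of all genes, but gave no adjusted p for 5 of the 8, and its unadjusted p for Sycp3 was 0.0444. Sycp3, at 5.55 ± 1.36 CPM in treated dXist and 0.742 ± 0.583 CPM in treated wild type (SD, n = 2 each), had an interaction of 3.86 (SE 1.98, adjusted p = 0.641). Library type differed between these treated groups as well.

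Other germline genes were counted beside them by lists of function. EdgeR called 0 genes of any of these lists in either decitabine comparison. At an unadjusted p under 0.05, the 18 other methylation-silenced germline genes (15 tested) had 7 higher and 1 lower in wild type and 5 higher and 0 lower in dXist, and DESeq2 called 3 and 4 higher. The 8 other synaptonemal complex and axis genes (6 tested) had 1 and 2 higher, with 0 and 2 called by DESeq2. The 23 double-strand break and recombination genes (16 tested) had 1 higher and 1 lower in wild type and 3 higher in dXist, with 0 and 1 called by DESeq2. These shares stand beside 12.4% (wild type) and 26.8% (dXist) of all genes at an unadjusted p under 0.05, and 3.51% and 15.5% called by DESeq2. The median log2 change in wild type was 4.21 for the methylation-silenced list (4.14 with genes at 0 counts set to their bound), 2.13 for the synaptonemal complex and axis list and 0.00099 for the recombination list, beside 3.64 (2.49) for the 8 tested of the 10 genes. In dXist the medians were 1.42, 1.46 and 0.54, beside 2.80. The same count filter set which genes of each list were tested.

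Telomere attachment and kinetochore genes (8, of which 5 tested) had 1 higher in each genotype, with 0 and 1 called by DESeq2. Meiotic entry regulators (10, of which 6 tested) had 2 higher in wild type and 2 higher and 1 lower in dXist, with 1 and 2 called higher by DESeq2. Repressors of germline promoters (18, all tested) had 4 lower in wild type and 0 in dXist, with 1 called lower by DESeq2 in wild type and 0 in dXist. The same shares of all genes stand beside these lists, 12.4% and 26.8% at an unadjusted p under 0.05 and 3.51% and 15.5% by DESeq2. Stra8, the factor that starts meiosis in germ cells, was named after its values were seen. It had 0 counts in all 5 untreated XEN libraries and stood at 0.660 and 0.945 CPM in treated wild type and 0.727 and 3.04 CPM in treated dXist (edgeR adjusted p = 0.186 and 0.0641).

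The 7 germ-cell markers in the table summed to 0.547 to 1.38 CPM in wild-type XEN, 1.32 to 6.83 CPM in dXist, 6.43 to 7.35 CPM in treated wild type and 3.69 to 17.4 CPM in treated dXist. Dazl, a germ-cell RNA-binding protein gene, was part of the treated sum, at 1.98 and 2.10 CPM in treated wild type and 1.40 and 10.5 CPM in treated dXist. Nanos2 was at 0 counts in treated dXist and Dppa3 in treated wild type. The summed level of the 7 extraembryonic endoderm markers was lower in treated libraries without overlap. It was 4209 to 4971 CPM in wild type against 2282 to 2414 CPM treated, and 4578 to 5604 CPM in dXist against 3045 to 3749 CPM treated. Gene by gene, 0 had a positive log2 change in wild type and 1 in dXist. By edgeR 2 were lower at an unadjusted p under 0.05 in each genotype, against 12.4% and 26.8% of all genes, and 0 were called. The part of either marker set in the results for the 10 genes was not tested.

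Mitotic cohesin subunits and their regulators, 9 genes, had 0 called by edgeR in either genotype. In dXist all 9 had a positive log2 change, 5 had an unadjusted p under 0.05 and DESeq2 called 3 higher. Over all genes the last 2 shares were 26.8% and 15.5%. In wild type 2 were lower at an unadjusted p under 0.05 and DESeq2 called 0, against 12.4% and 3.51% of all genes. Smc3 was at 154 and 153 CPM in treated wild type and at 779 and 160 CPM in treated dXist libraries 1 and 2, and Smc1a at 113, 107, 489 and 98.1 CPM. Treated dXist library 1 thus stood apart for these abundant genes. Without it edgeR called 0 genes in dXist, and without treated dXist library 2 it called 4730. Sycp1, Sycp2, Sycp3, Hormad1 and Stag3 stayed higher in all treated libraries with any 1 of the 9 XEN libraries left out. Leaving out a library cannot undo a lack of overlap, so this is no further check. Syce1 joined them when untreated dXist library 3 was left out. In that setting 4.67% of all genes were as cleanly higher and 4.52% as cleanly lower.

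Syce1, a central element gene, had that single high library. It stood at 0.135 and 0.0684 CPM in wild-type XEN, at 0.0665 and 0.156 CPM in dXist libraries 1 and 2, and at 31.6 CPM, from 888 counts, in dXist library 3. Treated libraries had 0.989 and 0.420 CPM in wild type and 0.615 and 0.468 CPM in dXist. Every treated library was thus above the other 4 untreated libraries and far below dXist library 3. No treated library has the number 3.

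For dXist against wild-type XEN the log2 change of Syce1 was 6.63 (SE 2.50, adjusted p = 0.419 by edgeR) and 0.083 without dXist library 3. Its decitabine change in dXist was -4.30 (SE 2.17, adjusted p = 0.230) and 2.25 without that library. These comparisons share the untreated dXist libraries. Of the genes next to Syce1, Cyp2e1 had 1 count in library 3, while Zfp941 was at 2.78 CPM there and at 0.103 to 0.936 CPM in the other 4 untreated XEN libraries.

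Several germline genes elsewhere in the genome were high in the same library, and were picked after their values were seen. The synaptonemal complex gene 4930447C04Rik, known as Six6os1, was at 2.17 CPM in dXist library 3 and 0 to 0.169 CPM in the other 4 untreated XEN libraries. Fkbp6 was at 1.75 CPM against 0 to 0.0337, Dpep3 at 9.02 CPM against 0.0665 to 0.371, and Asz1 at 1.67 CPM against 0 to 0.0684. Sycp1, Sycp2 and Sycp3 had 0 counts and Hormad1 had 1 count in that library.

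**Figure D4:**
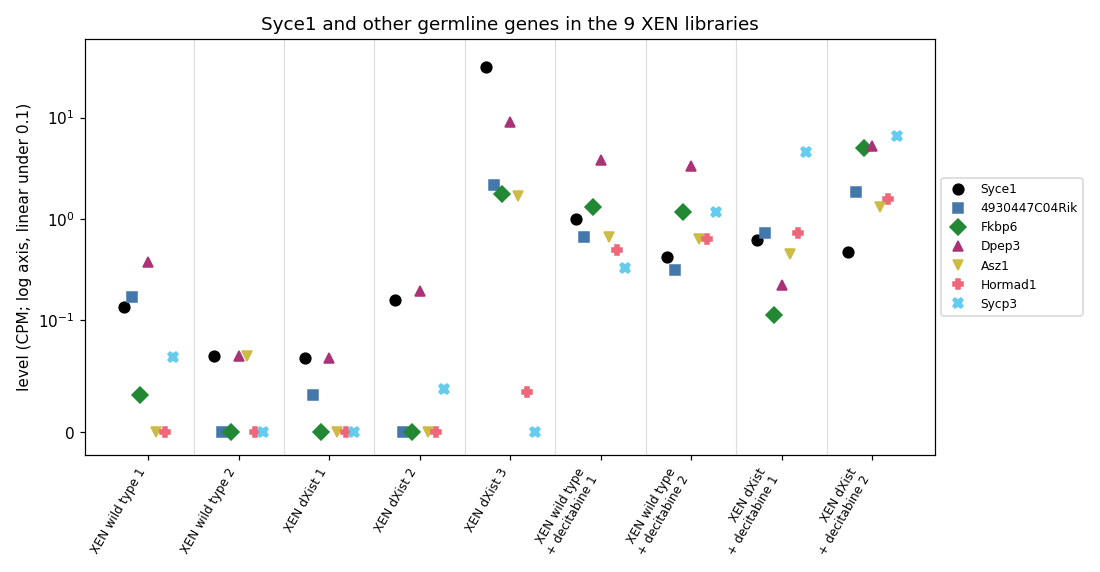
Levels (CPM, log axis, linear under 0.1) of Syce1, Sycp3, Hormad1 and 4 germline genes picked after their values were seen, in each of the 9 XEN libraries. In untreated dXist library 3, Syce1 (31.6 CPM), Dpep3 (9.02), 4930447C04Rik (2.17), Fkbp6 (1.75) and Asz1 (1.67) are high while Sycp3 and Hormad1 are at 0 and 1 count.

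In dXist against wild-type XEN, none of the tested genes passed. EdgeR called 0 of 8 tested, against 0.0217% of all genes (4 of 18393), with 1, Syce1, at an unadjusted p under 0.05 (10.7% of all genes). DESeq2 called 0, against 2.7% of all genes, but gave no adjusted p for 3 of the 8, Syce1 among them. Libraries overlapped for all 9 genes that had counts, while 10.5% of genes were cleanly higher and 10.9% cleanly lower. Syce2 was at 18.4 ± 1.62 CPM in wild type (n = 2) and 18.8 ± 4.12 CPM in dXist (SD, n = 3), and Rec8 at 1.27 ± 1.07 and 1.75 ± 1.24 CPM. Stag3 was at 0.373 ± 0.140 and 0.164 ± 0.143 CPM, with a log2 change of -1.16 (SE 0.96), which was -2.05 without dXist library 3. Fitted log2 changes of 3.33 for Sycp2, 1.66 for Hormad1 and -1.17 for Sycp3 rest on 4 counts or fewer in each untreated XEN library.

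The comparison of untreated cell types gave the levels in EpiSC beside XEN. Dmc1 and Rec8 were higher in wild-type EpiSC than in wild-type XEN, and both passed the test. Dmc1 was at 6.56 and 3.06 CPM in EpiSC against 0.0337 and 0 CPM in XEN, a count ratio of 307 (exact 95% interval 54.7 to 12180) and a log2 change of 7.86 (SE 1.28, edgeR adjusted p = 0.00227, higher in 2 of 2 libraries). Rec8 was at 12.3 and 13.6 CPM against 2.02 and 0.513 CPM (log2 change 3.39, SE 0.82, edgeR adjusted p = 0.0137). Without wild-type XEN library 2 the adjusted p of Rec8 was 0.0654, while Dmc1 was called in 11 of 11 settings.

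These were 2 of the 6 genes tested, against 16.8% of 19733 genes called higher (30.8% either way). With Sycp2, 3 of the 6 were at an unadjusted p under 0.05, against 44.6% of all genes. The other 4 did not pass. Sycp2 had 14 and 9 counts in EpiSC (0.405 and 0.417 CPM) and 0 in XEN, at least 8.04-fold higher than the floor, with edgeR adjusted p = 0.0566. Syce2 was at 11.6 and 14.4 CPM in EpiSC and 17.3 and 19.5 CPM in XEN, Stag3 at 0.578 and 1.11 against 0.472 and 0.273 CPM, and Smc1b at 0.752 and 0.0463 against 0.270 and 0 CPM. Without overlap, 5 of the 9 genes with counts were higher in EpiSC (Sycp1, Sycp2, Stag3, Rec8 and Dmc1, against 27.9% of genes) and 2 lower (Syce1 and Syce2, against 23.2%).

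Hormad1 had 0 counts in all 4 EpiSC libraries and Syce1 had 1. Wild-type EpiSC held 0.231 and 0 CPM of Sycp3. Sycp1, Sycp2, Sycp3, Syce1 and Hormad1 were thus at or under 0.560 CPM in every EpiSC library, while Rec8 and Dmc1 were at 3.06 CPM or more. Per kilobase, wild-type EpiSC held Syce2 at 6.60 ± 1.02, Rec8 at 4.40 ± 0.308 and Dmc1 at 1.98 ± 1.02 CPM per kb (SD, n = 2). Per kilobase, Rec8 was between 4.58% and 12.5% of its mitotic counterpart Rad21 in wild-type EpiSC.

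Of the 6 genes in the table within 20 kb of Rec8, 5 were tested, and edgeR called 3 lower in EpiSC and 0 higher. Over all 19733 genes tested, 14.1% were called lower and 16.8% higher. Ipo4, a nuclear import receptor gene 5 bp away on the other strand, was at 21.6 and 27.3 CPM in wild-type EpiSC and 70.1 and 92.6 CPM in wild-type XEN (log2 change -1.65, SE 0.30, edgeR adjusted p = 0.00396), lower where Rec8 was higher, and it shares no exon bases with Rec8 in the annotation. Tm9sf1 (log2 change -2.27, edgeR adjusted p = 0.00140) and Rnf31 (-1.72, edgeR adjusted p = 0.00728) were lower too. Irf9 (-1.20) and Gm49747 (-0.84) did not pass.

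The genotype comparison in EpiSC asked whether the Xist deletion went with other levels. Dmc1 and Rec8 were higher and Stag3 and Sycp2 lower in both dXist than in both wild-type libraries. For Dmc1 the wild-type libraries held 6.56 and 3.06 CPM and the dXist libraries 15.9 and 8.54 CPM. For Rec8 they held 12.3 and 13.6 CPM against 31.1 and 24.7 CPM. For Stag3 they held 0.578 and 1.11 CPM against 0.168 and 0.0871 CPM, from 20 and 24 counts against 6 and 2.

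Library 1 of each genotype was poly(A)-like and library 2 total-RNA-like. Within the poly(A)-like pair, Dmc1 differed by 1.27, Rec8 by 1.34 and Stag3 by -1.78 on the log2 scale of CPM. In the total-RNA-like pair the values were 1.48, 0.87 and -3.67. Each gene thus kept its direction in both kinds of library.

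The test without a library-type term called 0 of the 5 genes tested, against 0.0% of 17132 genes, and 3 were at an unadjusted p under 0.05 (10.2% of all genes). DESeq2 called 0 of the 5, against 2.87% of all genes, and gave no adjusted p for Smc1b. Log2 changes were 1.13 for Rec8 (SE 0.26, edgeR adjusted p = 0.281), 1.37 for Dmc1 (SE 0.48, adjusted p = 0.445) and -2.65 for Stag3 (SE 0.84, adjusted p = 0.400). With the replicate number as a block, which here is the library type and leaves 1 residual degree of freedom, all 3 passed by edgeR. In that fit Dmc1 rose by 1.40 (adjusted p = 0.00279), Rec8 rose by 1.13 (adjusted p = 0.00743) and Stag3 fell by 2.48 (adjusted p = 0.00573). There, 4.91% of genes were called higher and 6.53% lower. A fit of all 13 libraries with a library-type term called none of the 3, with an edgeR adjusted p of 1 each and unadjusted p of 0.170 for Rec8, 0.175 for Dmc1 and 0.0346 for Stag3.

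**Figure D5:**
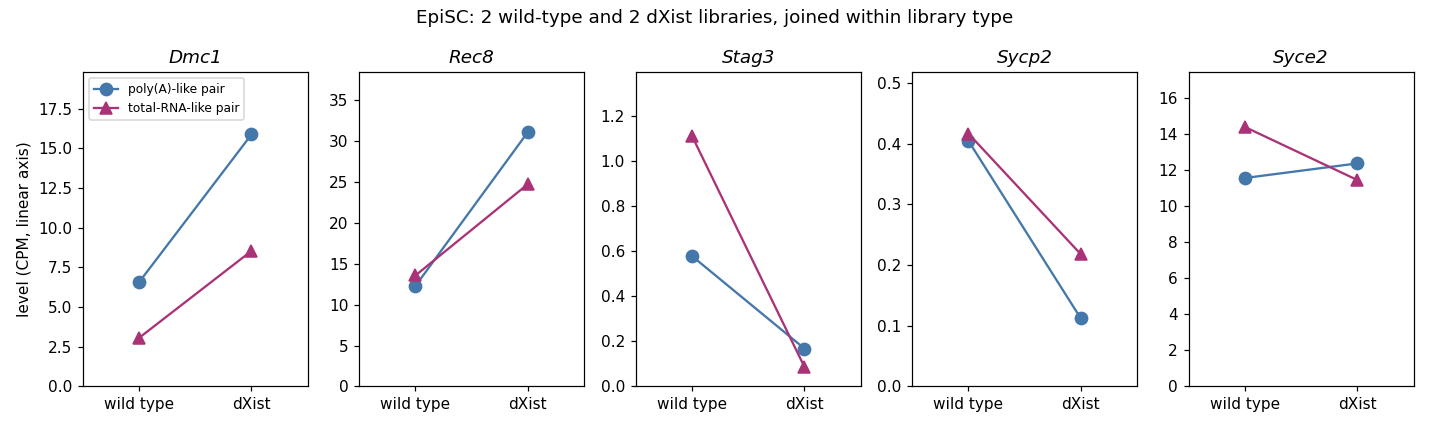
Levels in CPM (linear axis from 0) of 5 genes in wild-type and dXist EpiSC, joined within the poly(A)-like pair (circles) and the total-RNA-like pair (triangles). Dmc1 and Rec8 are higher and Stag3 and Sycp2 lower in dXist in both pairs, while Syce2 stays between 11.5 and 14.4 CPM.

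The other genes did not pass or were too low to test in EpiSC. Syce2 was at 11.6 and 14.4 CPM in wild type and 12.4 and 11.5 CPM in dXist (log2 change -0.10, SE 0.29), and Smc1b went from 0.752 to 0.672 CPM in the poly(A)-like pair and from 0.0463 to 0.348 CPM in the other. Sycp2 had 14 and 9 counts against 4 and 5, below the filter, and Sycp3 had 8 and 0 against 20 and 6. Without overlap, 3 of the 9 genes with counts were higher (Sycp3, Rec8 and Dmc1, against 16.4% of genes) and 2 lower (Sycp2 and Stag3, against 16.4%). The sum of the 6 fibroblast-feeder markers also differed between these groups, at 625 to 775 CPM in wild type and 152 to 229 CPM in dXist. By edgeR 4 of them were lower at an unadjusted p under 0.05 (10.2% of all genes) and 0 were called, while 1, Twist2, had a positive log2 change. DESeq2 called 2 lower, against 2.87% of all genes. The 6 epiblast markers summed to 603 to 643 CPM in wild type and 748 to 1136 CPM in dXist. Of these, 3 were higher at an unadjusted p under 0.05 (10.2% of all genes), with 0 called by edgeR and 1 by DESeq2 (2.87% of all genes). No other epiblast marker had a positive log2 change, and Pou3f1 and Dnmt3b were lower in dXist in both library-type pairs. The part of either set in the result was not tested.

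Across all 13 libraries, the mean of log2(CPM + 0.5) over the 10 genes was lowest in wild-type XEN library 2 (-0.28) and highest in treated dXist library 1 (1.02). Among 16906 genes with a symbol and at least 1 CPM in some group, the 5 whose log2 levels followed that mean most closely were Trim30a (Pearson 0.915), Gbp3 (0.897), Gm7972 (0.896), Dclre1c (0.896) and Zfp738 (0.890). These describe likeness over 13 libraries that share cell type, treatment and library type. Trim30a, an interferon-induced gene, was at 0.101 and 0.103 CPM in wild-type XEN, 11.1 and 5.88 CPM in treated dXist, and 1.87 to 3.30 CPM in EpiSC.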

How the data were processed

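The deposited table holds raw read counts per gene for 13 libraries, which the authors made on GRCm38 (mm10); the submitters' processing notes name FastQC, STAR (2.7.9a) and also featureCounts (2.0.1), and the annotation release and the counting strand were not given in the sources used here. Identifiers were matched to GENCODE gene models on GRCm38 (38240 of 38377). Gene symbols, exon lengths and neighbours came from that match, and promoters came from RefSeq.

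From the counts, CPM with TMM scaling over all 13 libraries was computed for levels. Tests used edgeR 4.0.16 in R 4.3.3 (TMM, filterByExpr with a minimum count of 10, robust quasi-likelihood F test, Benjamini-Hochberg over all genes tested, called under 0.05). One fit held the 9 XEN libraries, another the 4 EpiSC libraries, and the EpiSC against XEN comparison the 9 untreated libraries. DESeq2 1.42.0, no filter, a replicate block, protein-coding rows only, fewer groups, a library-type term and leaving out each library were alternatives. Library type was set at 5% of counts in mt-Rnr1, mt-Rnr2 and Rn7sk. Totals ran from 5848454 to 35247432 counts, which limits precision for genes of a few counts. The test was checked on simulated data. That simulation left out genes with few counts, so it does not cover the lowest of the 10 genes.

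The 10 genes, the lists and the tests were chosen with earlier results of these data known. The text names all 10, 5 mitotic cohesin genes, Xist and the 5 genes most like the mean of the 10. Genes of the other lists called after decitabine were to be named too, but edgeR called none. Stra8, Dazl, other single markers, the genes high with Syce1, and neighbours were named after their values were seen. Some results are not reported here. In EpiSC, same-numbered libraries deviated together (correlation 0.786). They share a library type, which cannot be told apart from anything else shared by number there. Elsewhere the correlations ran from -0.135 to 0.157.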

Additional observations from a re-analysis of the deposited data

Results flagged for a closer look

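Syce1 was lower after decitabine in dXist XEN (log2 change -4.30) and higher in wild-type XEN (2.84), a difference of -7.14 (SE 3.22) between the genotypes. It was listed because the 2 effects point opposite ways. The interaction did not pass by edgeR's quasi-likelihood test (adjusted p = 0.620, and 0.000130 to 1.0 over 14 settings, called in 1 of them, without a count filter). The value in dXist rests on untreated library 3, with 888 counts against 2 and 4 in the other untreated dXist libraries, and was 2.25 without it.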

How the results depend on the processing

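Of 434 refitted fold changes of the 10 genes, 384 kept direction and side of the threshold, 25 newly passed it, 1 ceased to and 24 changed sign; the cause was not tested. For decitabine in wild-type XEN, DESeq2 called 1 of the genes and 646 of all genes, no filter 2 and 747, protein-coding rows 0 of all genes, only the groups compared 927, and all 13 libraries with library type 1; without single libraries 44 to 61. For decitabine in dXist XEN, DESeq2 called 2 and 2852, no filter 4 and 2750, protein-coding rows 1 and 31, library type 3 and 1393, the replicate block 131 of all genes, and only the groups compared 0; without single libraries 0 to 2 of the genes and 0 to 4730 of all. For the interaction, no filter called 1 (Syce1) and 337, DESeq2 215 of all genes, and protein-coding rows and library type 0; without single libraries 28 to 1605. For dXist against wild-type XEN, no filter called 1 (Syce1) and 684, DESeq2 497 of all genes, the replicate block 368, only the groups compared 1 and library type 31; without single libraries 1 to 510. For EpiSC genotype, the replicate block called 3 and 1960, DESeq2 492 of all genes, no filter 676, protein-coding rows 186 and library type 2; without single libraries 0 to 174. For EpiSC against XEN, leaving out single libraries gave 1 to 2 of the genes and 3045 to 4864 of all.

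Sign changes under the replicate block were Syce1 for decitabine in dXist (2.22), Hormad1 for the interaction (0.77), and Syce2 (-0.036) and Rec8 (-0.24) for dXist against wild-type XEN. Leaving out single libraries gave these ranges of log2 change. For decitabine in dXist, Syce1 ran from -4.88 to 2.25 and Syce2 from -0.59 to 0.94. For the interaction, Sycp2 ran from -3.49 to 0.72, Syce2 from -0.80 to 0.66, Hormad1 from -1.46 to 0.85 and Rec8 from -1.27 to 0.80. For dXist against wild-type XEN, Sycp3 ran from -2.83 to 1.65, Syce2 from -0.10 to 0.20 and Rec8 from -0.28 to 1.78. For EpiSC genotype, Syce2 ran from -0.31 to 0.13 and Smc1b from -0.46 to 3.30. For EpiSC against XEN, Smc1b ran from -1.32 to 6.56. Leaving out libraries was an alternative chosen after seeing the data for the count of genes whose libraries did not overlap. It cannot undo a lack of overlap. For dXist against wild-type XEN it gave 0 to 2 genes, where 14.1% to 23.5% of all genes were cleanly higher and 13.2% to 31.0% cleanly lower. For EpiSC genotype it gave 6 to 8, where 29.4% to 34.8% of all genes were cleanly higher and 25.8% to 39.5% cleanly lower. Numbers at or below about 3 counts a library, as for Sycp1 after decitabine and for Sycp2 in treated wild type, are at the limit of depth.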
